A study of Mus musculus with 12 samples.

Results

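The BCL2 family decides whether a mitochondrion releases its contents into the cytosol, and with it whether a neuron enters apoptosis. H4K12ac peaks were described here at 10 of its genes, out of 55413 genes annotated on the 21 chromosomes that carried peaks. The genes were taken by name: the pro-survival members Bcl2, Bcl2l1 and Mcl1, the effectors Bax and Bak1, and the BH3-only members Bid, Bbc3, Bcl2l11, Pmaip1 and Hrk. The rule names the genes and uses no measured value, but the family was picked with earlier results of these data known. A peak was assigned to a gene if it lay within 2 kb of the 5′ end of the gene (the TSS window) or in the remaining gene body.

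Neuronal nuclei were sorted by FACS from the whole hippocampus, and chromatin was immunoprecipitated with an antibody against histone H4 acetylated at lysine 12 (H4K12ac). Peak lists were available for 5 Tip60cKO and 5 control libraries, from mice that were 3 months old and given tamoxifen, at day 10 after the last injection. Tip60cKO mice carried floxed Tip60 (Kat5) on both alleles and the CaMKCreERT2 driver, in which a Camk2a promoter expresses a tamoxifen-dependent Cre recombinase. Controls were littermates with the same floxed alleles and no driver. The labels describe the animals as male C57BL/6J, whereas the methods of the study name C57BL/6N and both sexes. The driver acts in excitatory forebrain neurons, while the sort took neurons in general, so that fewer nuclei bearing the mark and less of the mark in each nucleus cannot be told apart. Each list came from 1 library called against 1 input that was pooled per genotype.

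Pro-survival members hold the effectors in check, BH3-only members are stress sensors that bind and neutralise them or activate the effectors directly, and active BAX and BAK form pores in the outer mitochondrial membrane. Cytochrome c then leaves the mitochondria and starts the caspase cascade. Acetylation of H4K12, one of the histone residues modified by TIP60, is found at the start sites of transcribed genes. Many BH3-only genes are induced at the level of transcription in stressed neurons, Bbc3 (PUMA), Pmaip1 (NOXA), Bcl2l11 (BIM) and Hrk among them.

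The lists hold between 64245 and 136409 peaks from 22864189 to 37923809 tags. Tip60cKO replicate 5 was the shallowest library and had the shortest list. Peaks covered 43.8 ± 14.0 Mb in Tip60cKO and 56.4 ± 10.7 Mb in control lists (SD, n = 5). All 7 neuronal marker genes, Rbfox3 and Snap25 among them, had a TSS peak in all 10 lists. No list had a TSS peak at 2 of 4 astrocyte markers (Aqp4 and Aldh1l1), 3 of 4 microglial markers (Cx3cr1, Csf1r and Aif1) and 1 of 3 endothelial markers (Pecam1). Of the oligodendrocyte genes, Mog had none in any list, whereas Mbp had one in every list. The mean score of the neuronal markers (TSS rank score, defined below) was 45.2 to 72.8 in Tip60cKO and 67.4 to 75.9 in control lists, and that of the 4 astrocyte markers 0 to 4.56 and 0.335 to 17.3. It was 0 to 4.07 and 0 to 9.25 for microglial, and 0 to 9.53 and 0 for endothelial markers. Their part in the differences at the BCL2 family genes was not tested. The targeted gene Kat5 carried a peak within its floxed part, which includes the start of the coding sequence, in all 10 lists. The fold enrichment of that peak over input was 7.77, 9.05, 9.45, 9.87 and 9.03 in controls and 7.81, 7.94, 7.01, 7.83 and 4.95 in Tip60cKO, with means of 9.03 ± 0.789 and 7.11 ± 1.26 (two-sided exact permutation p = 0.0317). Control replicate 1 lay among the Tip60cKO lists, and the other controls were above all of them. Peaks covered 41.6 ± 4.18% of the floxed part in controls and 42.9 ± 9.66% in Tip60cKO (exact permutation p = 0.778). These values do not by themselves show that the floxed part was lost, and the genotype was taken from the labels.

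Promoter sequences are shown for 4 members that mark the range of the peaks described below. Bbc3 had the largest difference between genotypes in the rank of its TSS peak, Bak1 a tall peak, Bcl2l11 the weakest of the peaks found, and Hrk no peak at its annotated 5′ end but one at a start further in. The sequences are RefSeq promoters on GRCm38.p6, from 250 bases before to 50 bases after a start site, written 5′ to 3′ on the strand of the gene. Entries were found for 9 of the 10 members, with 14 windows in all. Capitals mark motifs found on either strand, where adjoining matches can share bases. A GC box was searched as GGGCGG. The CCAAT box was searched by the letters of its name. An E box was searched as CACGTG.
Bbc3, chr7:16309333-16309632, plus strand, start site at +1190 from the 5′ end of the gene: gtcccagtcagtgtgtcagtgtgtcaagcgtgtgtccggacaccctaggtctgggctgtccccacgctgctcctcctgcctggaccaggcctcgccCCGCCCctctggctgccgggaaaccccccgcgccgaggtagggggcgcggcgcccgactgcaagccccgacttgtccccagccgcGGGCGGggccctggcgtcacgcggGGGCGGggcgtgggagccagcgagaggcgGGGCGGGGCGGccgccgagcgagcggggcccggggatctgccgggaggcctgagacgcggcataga
Bak1, chr17:27028578-27028877, minus strand, start site at +382: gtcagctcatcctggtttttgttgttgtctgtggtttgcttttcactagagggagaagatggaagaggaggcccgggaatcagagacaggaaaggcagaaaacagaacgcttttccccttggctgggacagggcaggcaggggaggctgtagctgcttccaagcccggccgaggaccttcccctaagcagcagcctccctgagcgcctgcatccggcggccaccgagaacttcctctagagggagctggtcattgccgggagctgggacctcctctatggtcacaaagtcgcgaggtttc
Bcl2l11, chr2:128125788-128126087, plus strand, start site at the 5′ end: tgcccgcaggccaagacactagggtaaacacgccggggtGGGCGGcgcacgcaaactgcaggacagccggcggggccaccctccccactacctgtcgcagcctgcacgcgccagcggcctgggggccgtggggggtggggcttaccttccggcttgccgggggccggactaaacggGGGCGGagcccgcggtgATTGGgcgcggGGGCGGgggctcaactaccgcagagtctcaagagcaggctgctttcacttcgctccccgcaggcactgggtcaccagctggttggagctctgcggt
Hrk, chr5:118169514-118169813, plus strand, start site at +5116: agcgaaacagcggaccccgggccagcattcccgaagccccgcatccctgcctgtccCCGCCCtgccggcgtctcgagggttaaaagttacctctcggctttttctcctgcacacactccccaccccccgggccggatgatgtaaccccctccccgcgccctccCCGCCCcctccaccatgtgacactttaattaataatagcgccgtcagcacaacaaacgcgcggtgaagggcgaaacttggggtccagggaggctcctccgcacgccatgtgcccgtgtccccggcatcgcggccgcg

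The Bbc3 window held 5 GC boxes and the Hrk window 2, while the Bcl2l11 window held 3 together with 1 CCAAT box. In the Bak1 window none of these motifs occurred. A cAMP response element (searched as TGACGTCA), a TATA box (TATAAA) and the E2F motifs TTTCCCGC and TTTGGCGC were absent from all 14 windows of the members and present in 1.79, 13.6, 1.07 and 0.514% of all promoters. Over the members, 10 of 14 windows held a GC box, against 35.7% of all 32851 RefSeq promoters of this length. The 14 windows came from 9 genes, and the Bbc3 windows at +1868 and +2038 overlap and share GC boxes. The windows are therefore not independent of each other. A CCAAT box was present in 3 of 14 member windows and in 37.4% of all promoters. An E box occurred in 2 windows, those of Bax and of Bbc3 at +2038, compared with 7.15% of all promoters. The ratio of observed to expected CpG dinucleotides was 0.788 for Bbc3, 0.956 for Hrk, 0.719 for Bcl2l11 and 0.435 for Bak1, above the median of 0.384 over all promoters in each case. The Bak1 window overlapped a merged region with peaks in all 10 lists, whereas the Bcl2l11 window overlapped 2 regions shared by lists, with peaks in 4 and in 2 of them. These matches describe the sequence and were not tested for binding.

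Each TSS window was given a TSS rank score per list. This score is the percent rank of the fold enrichment of its strongest peak among all genes with a TSS peak in the same list, so that 100 is the tallest peak and 0 stands for no peak. Of the 10 members, 7 had a TSS peak in all 10 lists, Bcl2l11 had one in 3 lists of each genotype, and Pmaip1 and Hrk had none. No member differed by 4 or more lists between the genotypes, as did 1.25% of all genes tested. In the controls the mean score fell from 90.9 for Bcl2l1 to 84.4 for Bak1, 80.4 for Mcl1, 75.1 for Bbc3, 57.7 for Bax, 57.6 for Bcl2, 37.4 for Bid and 8.06 for Bcl2l11. Only at 2 steps of this order between genes with peaks was the higher gene ahead in each of the 5 control lists, from Bbc3 to Bax (by 17.4 ± 9.36, SD, n = 5) and from Bid to Bcl2l11 (by 29.3 ± 9.04). The other neighbours overlapped within their spread: Bcl2l1 led Bak1 in 3 of 5 control lists, and Bax exceeded Bcl2 by 0.162 ± 27.5.

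**Figure D1:**
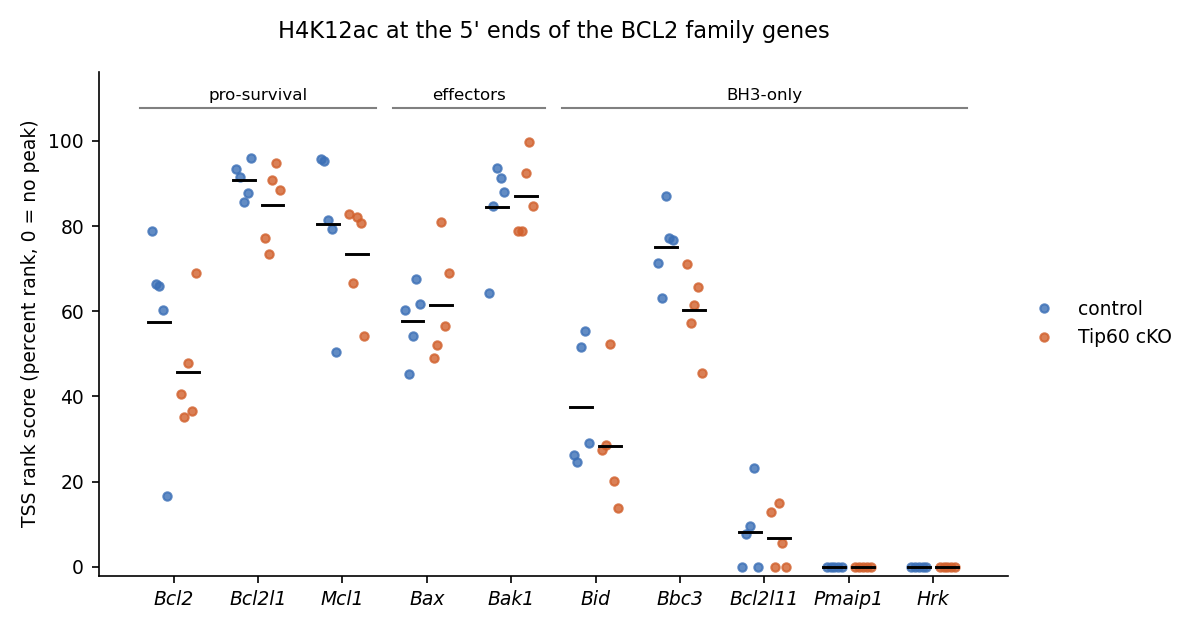
TSS rank score (vertical axis, percent rank with 0 for no peak) of the 10 BCL2 family genes, 1 point per peak list, controls in blue and Tip60 cKO in orange, with black bars at the group means (n = 5). Points of both genotypes overlap for every gene with a peak, and Pmaip1 and Hrk lie at 0 in all 10 lists.

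The comparison of genotypes asks whether H4K12ac at these genes differed between the libraries labelled Tip60cKO and control. No member was called in the TSS rank score: 8 of 10 had a peak in at least 2 lists and were tested, 6 had a lower mean in Tip60cKO and 2 a higher one, and 0 passed an adjusted p-value of 0.05 in limma over 21672 genes. Over all those genes, 1.08% were called. Bbc3 was the 1 member with an unadjusted limma p below 0.05, which 14.5% of all genes tested also had. The median difference of the 8 members was −6.48, beside −1.99 over all genes tested, of which 57.9% had a lower mean in Tip60cKO. Groups did not separate for any member, while they did so for 3.46% of all genes. Adjusted p-values of the members ranged from 0.287 to 0.943 (limma, Benjamini-Hochberg).

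Among the pro-survival members, Bcl2l1 (ENSMUSG00000007659.18, chr2:152780668-152831728, minus strand, 51.1 kb), whose main product BCL-XL protects mature neurons, had the highest mean score in controls. They were 93.4, 91.4, 85.7, 87.8 and 96.0 in control replicates 1 to 5 and 77.2, 73.5, 90.9, 94.7 and 88.5 in Tip60cKO replicates 1 to 5. Tip60cKO replicates 1 and 2 lay below all controls, and the other lists overlapped with them. The difference was −5.89 (95% interval −17.2 to 5.48, adjusted p = 0.656, limma), with −9.62 in lane 7 and −0.282 in lane 8, and −3.02 without Tip60cKO replicate 2.

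Bcl2 (ENSMUSG00000057329.7, chr1:106538178-106714274, minus strand, 176.1 kb), which gave the family its name and guards the outer mitochondrial membrane, varied most between lists. Its scores were 78.9, 66.4, 65.8, 60.2 and 16.6 in the controls and 40.5, 35.0, 47.7, 36.5 and 69.0 in Tip60cKO. With the exception of control replicate 5 and Tip60cKO replicate 5, the controls were all above the Tip60cKO lists. The difference was −11.8 (95% interval −36.3 to 12.7, adjusted p = 0.680, limma). It was −29.2 among the libraries of sequencing lane 7 (3 of each genotype) and 14.4 among those of lane 8 (2 of each), so that the direction was not shared by both lanes. Without control replicate 5 it was −22.05 and without control replicate 1 −6.48 (adjusted p-values of 0.257 and 0.854, limma).

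Mcl1 (ENSMUSG00000038612.16, chr3:95658788-95663176, plus strand, 4.39 kb) encodes a short-lived protein that restrains BAK and the BH3-only proteins. The scores were 95.7, 95.2, 81.4, 79.4 and 50.4 in controls and 82.7, 66.7, 82.2, 80.8 and 54.3 in Tip60cKO. In both genotypes replicate 5 was lowest, and the groups overlapped. The difference was −7.07 (95% interval −27.3 to 13.2, adjusted p = 0.772, limma), with −13.6 in lane 7 and 2.65 in lane 8. Leaving out 1 library gave −2.31 (without Tip60cKO replicate 5) to −14.6 (without control replicate 5).

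The effectors were the members with a higher mean score in Tip60cKO, in neither case beyond the spread. Bax (ENSMUSG00000003873.11, chr7:45461697-45466898, minus strand, 5.20 kb) encodes the effector on which death of many neurons depends. It scored 60.3, 45.2, 54.1, 67.5 and 61.6 in controls and 49.1, 52.0, 80.9, 56.6 and 69.0 in Tip60cKO. The 2 highest values belonged to Tip60cKO, the lowest to a control. The difference was 3.78 (95% interval −11.5 to 19.1, adjusted p = 0.843, limma), but −11.0 when peaks were ranked by pileup. The local background of the input under its strongest peak was 1.26 times the genome background in controls and 1.0 times in Tip60cKO (means of 5 lists), and the part of this in the score was not tested.

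Bak1 (ENSMUSG00000057789.14, chr17:27019810-27029009, minus strand, 9.20 kb), the other effector gene, overlaps Ggnbp1. Its scores were 64.3, 84.8, 93.6, 91.3 and 88.0 in controls and 78.8, 78.9, 92.4, 99.7 and 84.8 in Tip60cKO. Control replicate 1 was lowest and Tip60cKO replicate 4 highest. The difference was 2.54 (95% interval −12.1 to 17.1, adjusted p = 0.898, limma).

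Of the BH3-only members, Bbc3 (ENSMUSG00000002083.13, chr7:16308393-16318205, plus strand, 9.81 kb) encodes PUMA, a target of p53 that binds all pro-survival members. It showed the largest difference of the family in this score. Its scores were 71.2, 63.1, 87.1, 77.2 and 76.7 in controls and 71.0, 57.2, 61.4, 65.6 and 45.6 in Tip60cKO. Replicates 1 and 4 of Tip60cKO exceeded control replicate 2, and no other Tip60cKO list exceeded any control. The means were 75.1 ± 8.79 and 60.2 ± 9.63 (SD, n = 5), a difference of −14.9 with a 95% interval from −28.3 to −1.55. It had an unadjusted p of 0.0319 and an adjusted p of 0.287 over all genes (limma), and the exact permutation p, two-sided over the 10 lists, was 0.0317. The difference was −10.6 in lane 7 and −21.4 in lane 8, −35.6 with a window of 1 kb, which ends before the summits described below, and −7.38 with the transcript start of highest score.

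Over the 10 lists, the protein-coding genes whose TSS rank scores followed those of Bbc3 most closely were Omp (Pearson r = 0.965), Pkd2l2 (r = 0.928) and Hnrnph1 (r = 0.923), out of 13688 genes compared. These coefficients are the highest among many, the 10 points share library depth and input, and they serve as a description.

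Bid (ENSMUSG00000004446.12, chr6:120891930-120916853, minus strand, 24.9 kb), which links death receptors to mitochondria once caspase-8 has cleaved it, scored 26.3, 24.7, 51.6, 55.3 and 29.2 in controls and 27.3, 28.6, 52.3, 20.2 and 13.8 in Tip60cKO. In both genotypes replicate 3 was high, and Tip60cKO replicate 5 was lowest. In that list the local background of the input under the strongest peak was 1.58 times the genome background. The mean of the controls was 1.0 times, and the part of this in the score was not tested. The difference was −8.95 (95% interval −28.0 to 10.1, adjusted p = 0.689, limma), with 1.89 in lane 7 and −25.2 in lane 8, and it ran from −4.48 without control replicate 4 to −14.9 without Tip60cKO replicate 3. When peaks were ranked by pileup it was 3.15. The start of another gene, Gm44260, lies in the same window, and its peaks cannot be told apart from those of Bid.

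Bcl2l11 (ENSMUSG00000027381.16, chr2:128126038-128162547, plus strand, 36.5 kb) encodes BIM, which FOXO factors and JUN induce in neurons deprived of trophic support. A peak was found in control replicates 2, 3 and 4, with scores of 7.56, 9.63 and 23.1, and in Tip60cKO replicates 1, 3 and 4, with scores of 12.9, 15.0 and 5.55. The remaining lists had none. The difference was −1.36 (95% interval −13.9 to 11.2, adjusted p = 0.943, limma).

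Pmaip1 (ENSMUSG00000024521.8, chr18:66458533-66465565, plus strand, 7.03 kb) encodes NOXA, a selective partner of MCL1. No list of either genotype had a peak in its TSS window or gene body, so H4K12ac there was below the threshold of the peak caller at this depth. Hrk (ENSMUSG00000046607.6, chr5:118164648-118189478, plus strand, 24.8 kb), a neuronal BH3-only gene, had no peak within 2 kb of its annotated 5′ end either, although peaks lay further in, as described below.

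The fold enrichment behind these ranks had a lower mean in Tip60cKO for each of the 8 tested members, with a median difference of −0.882. The same quantity had a median of −0.645 over all 21672 genes, and 72.5% of them were lower. In Bbc3 the fold enrichment was 6.78, 6.10, 8.39, 6.89 and 6.75 in controls and 6.16, 5.07, 5.48, 5.82 and 4.80 in Tip60cKO. All but Tip60cKO replicate 1 lay below every control. The means were 6.98 ± 0.849 and 5.47 ± 0.551 (two-sided exact permutation p = 0.0159). In Bcl2l1 it was 9.25, 8.63, 8.21, 7.84 and 8.94 in controls and 6.58, 5.90, 7.67, 8.28 and 6.90 in Tip60cKO, where replicate 4 alone exceeded the lowest control. The means were 8.57 ± 0.563 and 7.06 ± 0.931 (exact permutation p = 0.0238). These were the 2 of 8 members with an exact p below 0.05, none of them adjusted, and 16.8% of all genes tested were lower with such a p. Fold enrichment is relative to the pooled input of the same genotype, so both groups were set against different inputs. The local background over the genome background was 1.12 in controls and 1.0 in Tip60cKO at Mcl1, 1.14 and 1.04 at Bcl2l1, and 1.0 in both at Bbc3. At Bid it was 1.0 in controls and 1.12 in Tip60cKO. The part of this background in the differences was not tested.

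TSS coverage is the percentage of the 4 kb window occupied by peaks, and no member was called in it either. Of the 8 members tested, 7 were lower and 1 higher, with a median difference of −4.26 percentage points beside −4.01 over all genes, of which 1.56% were called and 81.1% were lower. No groups of a member separated, compared with 5.38% of all genes. Bak1 had the broadest acetylation and the largest difference. It was covered to 64.4, 57.9, 50.6, 42.0 and 73.6% in controls and to 48.5, 36.8, 61.0, 45.4 and 30.3% in Tip60cKO, so that the groups overlapped. The difference was −13.2 percentage points (95% interval −27.6 to 1.08, limma with unadjusted p of 0.0669 and adjusted p = 0.248), with −8.83 in lane 7 and −19.9 in lane 8. For the other members, differences lay between −5.10 for Bid and 0.730 for Mcl1, and adjusted p-values between 0.349 and 0.972 (limma). These moved with single libraries, and that of Bid ran from −9.17 without control replicate 3 to −0.224 without control replicate 2. Covered length depends on the number of peaks called, which was lowest in Tip60cKO replicate 5, and the part of this in the differences was not tested. With equal numbers of peaks in all lists the difference for Bax was −10.6 (adjusted p = 0.0607, limma), where it was −4.95 with all peaks. With a window of 1 kb it was −22.6 for Bak1 (adjusted p = 0.119, limma).

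**Figure D2:**
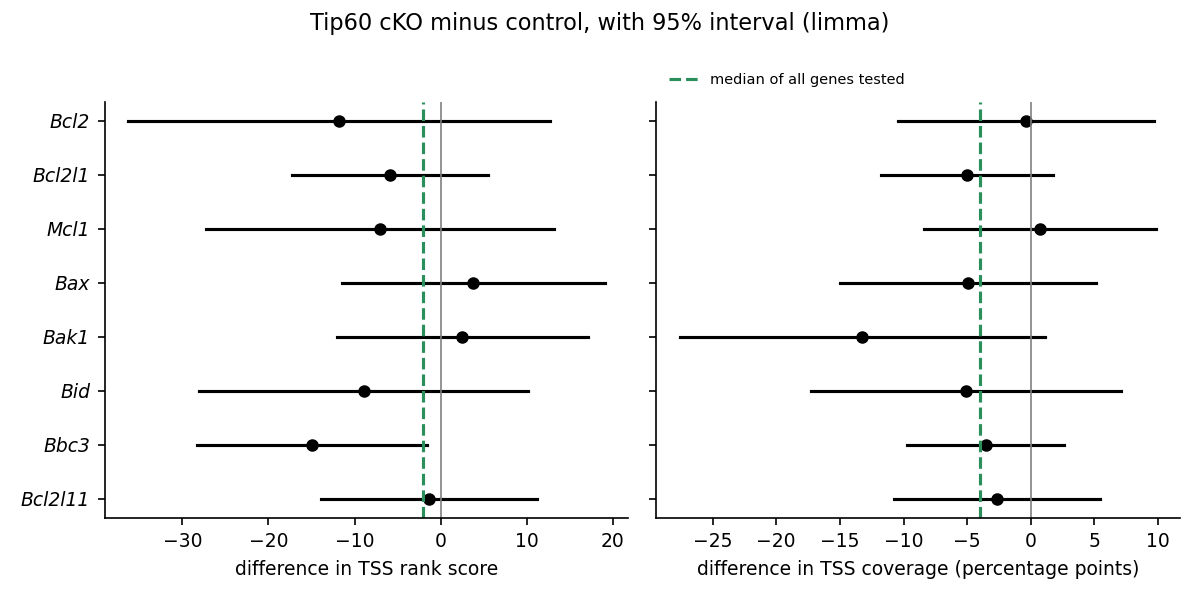
Difference between the means of Tip60 cKO and control lists (horizontal axes) in TSS rank score (left) and in TSS coverage in percentage points (right) for the 8 BCL2 family genes tested, with 95% intervals from limma as lines. The dashed green line is the median of all 21672 genes tested, at −1.99 and −4.01, and only the interval of Bbc3 in the left panel does not reach 0.

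The summits of the TSS peaks were not at the same distance from the annotated 5′ ends. The strongest peak of Bcl2l1 had its summit at +635 bp (median of 10 lists, range 128 to 684), that of Bak1 at +616 bp (535 to 710), that of Mcl1 at +443 bp (−257 to 658) and that of Bax at +272 bp (−450 to 350). In Bcl2 the median was −299.5 bp (−341 to 1665). The Bbc3 summit lay at +1413.5 bp, between 1280 and 1546 in all 10 lists, close to the RefSeq start at +1190 whose promoter is printed above and to the GENCODE transcript start at +1223. For Bbc3, the strongest of all transcript starts over the lists was the one at +5124. At that start the score was 96.8 ± 2.15 in controls and 89.4 ± 6.61 in Tip60cKO, a difference of −7.38 (exact permutation p = 0.0238, adjusted p = 0.483, limma).

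Hrk showed the same separation of annotated end and peak. At its downstream transcript start (+5100, where RefSeq gives +5116 as the start) the scores were 73.2, 70.1, 74.4, 69.4 and 54.4 in controls and 85.5, 86.8, 72.2, 47.7 and 53.3 in Tip60cKO. The lists of lane 7 lay higher than those of lane 8 in both genotypes, and groups overlapped. The means of 68.3 ± 8.06 and 69.1 ± 18.1 differed by 0.821 (adjusted p = 0.981, limma). With the start of highest score taken for each gene, Bbc3 led the controls and Hrk lay between Mcl1 (79.8 ± 18.9) and Bax (56.6 ± 8.54), while Pmaip1 had no peak at any of its 3 transcript starts.

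Merging overlapping peaks of all lists gave 144781 consensus regions present in at least 2 lists. Each region was ranked by its strongest peak among the regions with a peak in the same list (region rank score). Of these, 16 lay in TSS windows of the members and 34 in their gene bodies, with 8 found in all 10 lists in each place. No region of a member was called (limma, over all regions, of which 0.711% were called). Regions with an unadjusted limma p below 0.05 are described below, and 11.0% of all regions had such a p, 8.24% lower and 2.74% higher. Some of those higher in Tip60cKO reached the minimum of 2 lists only through that genotype, so that their number is not read as a result. Groups did not separate at any of the 50 regions, while they did so at 2.13% of all.

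Peaks covered the gene bodies of the family very unequally. The body as measured here includes internal transcript starts. In Bbc3 a region of 1387 bp over the start at +5124 counts towards it, and in Hrk one of 1766 bp over the start at +5100. The coverage of these genes is therefore in part that of internal promoters. Gene body coverage, the percentage of the gene beyond the first 2 kb that lies in peaks, was 24.2 ± 3.54% for Bbc3, 15.0 ± 3.01% for Bcl2l1, 14.0 ± 9.23% for Bak1 and 9.46 ± 3.07% for Hrk in controls (SD, n = 5). It was 3.39 ± 4.79% for Bax, 1.19 ± 1.12% for Bid, 0.621 ± 0.711% for Bcl2l11 and 0.0517 ± 0.0712% for Bcl2, and Mcl1 and Pmaip1 had no peak there. Thus the longest gene, Bcl2, had few peaks beyond its start, in 2 lists of each genotype. Its body held 1 consensus region, found in 2 control lists, and 3 regions found in a single list. Of the 8 members tested, 4 were lower and 4 higher in Tip60cKO and 0 were called, beside 0.149% called and 73.7% lower among 13419 genes. Bbc3 had the largest difference, which rested on Tip60cKO replicate 5, with 24.5, 29.8, 23.6, 22.7 and 20.2% in controls and 22.0, 17.0, 35.6, 21.0 and 5.72% in Tip60cKO. Tip60cKO held both the highest and the lowest value, and the difference was −3.92 percentage points (95% interval −14.8 to 6.98, adjusted p = 0.750, limma), −0.281 without Tip60cKO replicate 5 and −7.75 without Tip60cKO replicate 3. The median difference was −0.0827 percentage points for the members and −0.544 for all genes tested.

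**Figure D3:**
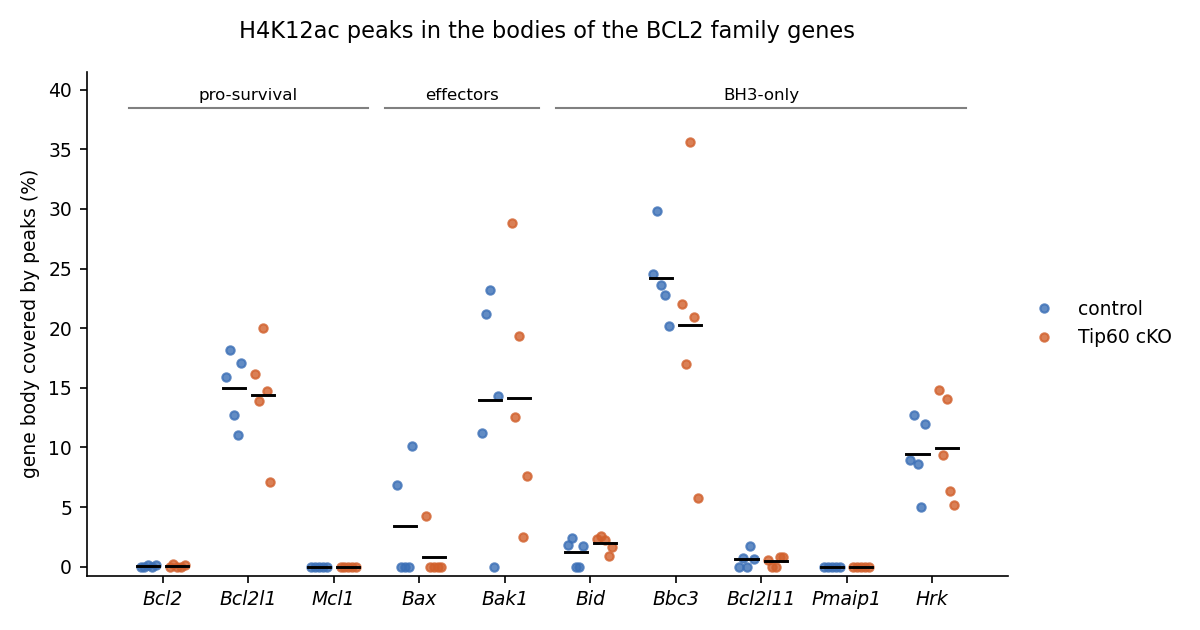
Percentage of the gene body, from 2 kb after the 5′ end to the 3′ end, that lies in H4K12ac peaks (vertical axis) for the 10 BCL2 family genes, 1 point per list, controls in blue and Tip60 cKO in orange, black bars at the group means (n = 5). The means of Bbc3, Bcl2l1, Bak1 and Hrk stand above those of the others in both genotypes, while single lists overlap, and values of Bcl2, Mcl1 and Pmaip1 are at or near 0.

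Bcl2l1 had the most regions, 2 in its TSS window and 12 in its body, of which 1 and 5 were in all 10 lists. The region at its start (centre at +512 bp) scored 98.0 ± 1.09 in controls and 95.9 ± 2.54 in Tip60cKO. The others in all 10 lists lay between +37220 and +49144 bp, near the 3′ end of the gene, where single regions went in opposite directions. At +37220 bp (chr2:152794067-152794950) the region rank score was 79.0, 83.3, 72.5, 67.0 and 75.1 in controls and 17.6, 37.5, 46.0, 74.8 and 16.9 in Tip60cKO. Apart from Tip60cKO replicate 4, all Tip60cKO lists lay below the controls, with a difference of −36.8 (95% interval −60.1 to −13.6, limma with unadjusted p of 0.00525 and adjusted p = 0.198). Without replicate 4 of Tip60cKO it was −45.9 with an adjusted p of 0.0394 (limma), within a range of 0.0394 to 0.739 over its alternatives. The adjacent region at +38627 bp (chr2:152792183-152794019) went the other way, with 63.8, 38.5, 40.2, 28.7 and 22.4 in controls and 63.1, 68.4, 80.8, 50.9 and 62.9 in Tip60cKO (difference 26.5, limma with unadjusted p of 0.0108 and adjusted p = 0.267), but the difference was 3.52 when peaks were ranked by pileup and 40.1 with equal numbers of peaks. These regions are direct neighbours.

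Of the other regions of the Bcl2l1 body, 2 had an unadjusted p below 0.05 and peaks in both genotypes. At +42160 bp the mean score was 37.8 ± 23.8 in controls and 68.9 ± 21.1 in Tip60cKO (adjusted p = 0.425), a difference of 31.05 that was 1.59 with pileup ranks. At +43890 bp it was 27.1 ± 21.8, with a peak in 4 control lists, and 0.225 ± 0.360, with a peak in 2 Tip60cKO lists (adjusted p = 0.329, both limma), and the difference of −26.9 was −6.01 with pileup ranks and −5.55 with equal numbers of peaks. At +13768 bp a peak was found in 3 Tip60cKO lists and in no control, with a mean of 18.7 ± 17.5. This region was included only through the genotype in which it is higher, and no test is given. The regions at +46096 and +49144 bp, in all 10 lists, differed by 2.32 and 15.4 with adjusted p-values of 0.909 and 0.555 (limma).

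In the TSS window of Bcl2, the main region around the start (centre at −12 bp, all 10 lists) scored 83.1 ± 19.8 in controls and 77.2 ± 7.40 in Tip60cKO. Another region downstream, at +1604 bp (chr1:106712464-106712875), was absent from control replicates 1, 2, 3 and 5 and scored 50.2 in replicate 4. In Tip60cKO it scored 71.4, 68.4, 59.7 and 69.4 in replicates 1 to 4 and was absent from replicate 5. With 1 control list, this region too reached the minimum of 2 lists only through Tip60cKO, and no test is given. The difference of the means was 43.8, with 66.5 in lane 7 and 9.63 in lane 8.

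In Bax 2 regions flanked the start in all 10 lists. The downstream region at +812 bp scored 86.9 ± 6.37 in controls and 86.8 ± 5.06 in Tip60cKO. The upstream region at −460 bp (chr7:45466979-45467737) scored 84.9, 83.3, 64.6, 78.9 and 71.0 in controls and 42.4, 0.927, 21.1, 81.4 and 38.8 in Tip60cKO. As in Bcl2l1, replicate 4 was the Tip60cKO list that overlapped with the controls. The difference was −39.6 (95% interval −68.0 to −11.3, limma with unadjusted p of 0.0108 and adjusted p = 0.266), with −56.1 in lane 7 and −14.9 in lane 8.

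In Hrk the region at the downstream start (centre at +5080 bp, chr5:118168845-118170610) was in all 10 lists, with 92.5 ± 2.73 in controls and 89.2 ± 8.83 in Tip60cKO. At +10121 bp (chr5:118174566-118174972) a region was found in 1 control list, with a score of 12.0, and in all Tip60cKO lists, with 69.3, 41.3, 24.8, 7.33 and 38.8. It was included only through Tip60cKO in the same way, and no test is given, while presence differed by 4 or more lists at 2.77% of all regions. The difference of the means was 33.9, or 18.4 with equal numbers of peaks, and the 1 Tip60cKO list inside the range of the controls was replicate 4. At +22956 bp the score was 9.36 ± 13.0 in controls and 41.6 ± 26.5 in Tip60cKO (adjusted p = 0.377, limma), a difference of 32.3 that was 21.2 with equal numbers of peaks.

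The remaining regions found in all lists are given by their means in controls and Tip60cKO. Bbc3 had its tallest region at +5667 bp, with scores from 98.5 to 99.7 in controls and from 94.1 to 99.1 in Tip60cKO, and the region at +1548 bp scored 94.2 ± 2.03 and 85.5 ± 8.34 (exact permutation p-values of 0.0238 and 0.0159). Their unadjusted limma p-values were 0.629 and 0.134, and the share of all regions with such an exact p was not computed. The regions lie over the start at +5124 and the TSS summits described above, so that they are not separate results. Mcl1 at +490 bp scored 93.3 ± 8.89 and 90.8 ± 7.56, and Bid at +127 bp 73.4 ± 11.6 and 58.0 ± 19.1. Bak1 scored 96.5 ± 2.79 and 96.4 ± 2.59 at +274 bp, and 79.3 ± 14.8 and 87.0 ± 7.08 at +9910 bp, a region that runs past the 3′ end of the gene into the overlapping Ggnbp1. Adjusted p-values of these 6 regions lay between 0.555 and 0.992 (limma). Outside Bbc3, their exact permutation p-values were 0.571 for Mcl1, 0.135 for Bid, and 0.921 and 0.365 for Bak1 at +274 and +9910 bp. None of the exact p-values was adjusted.

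**Figure D4:**
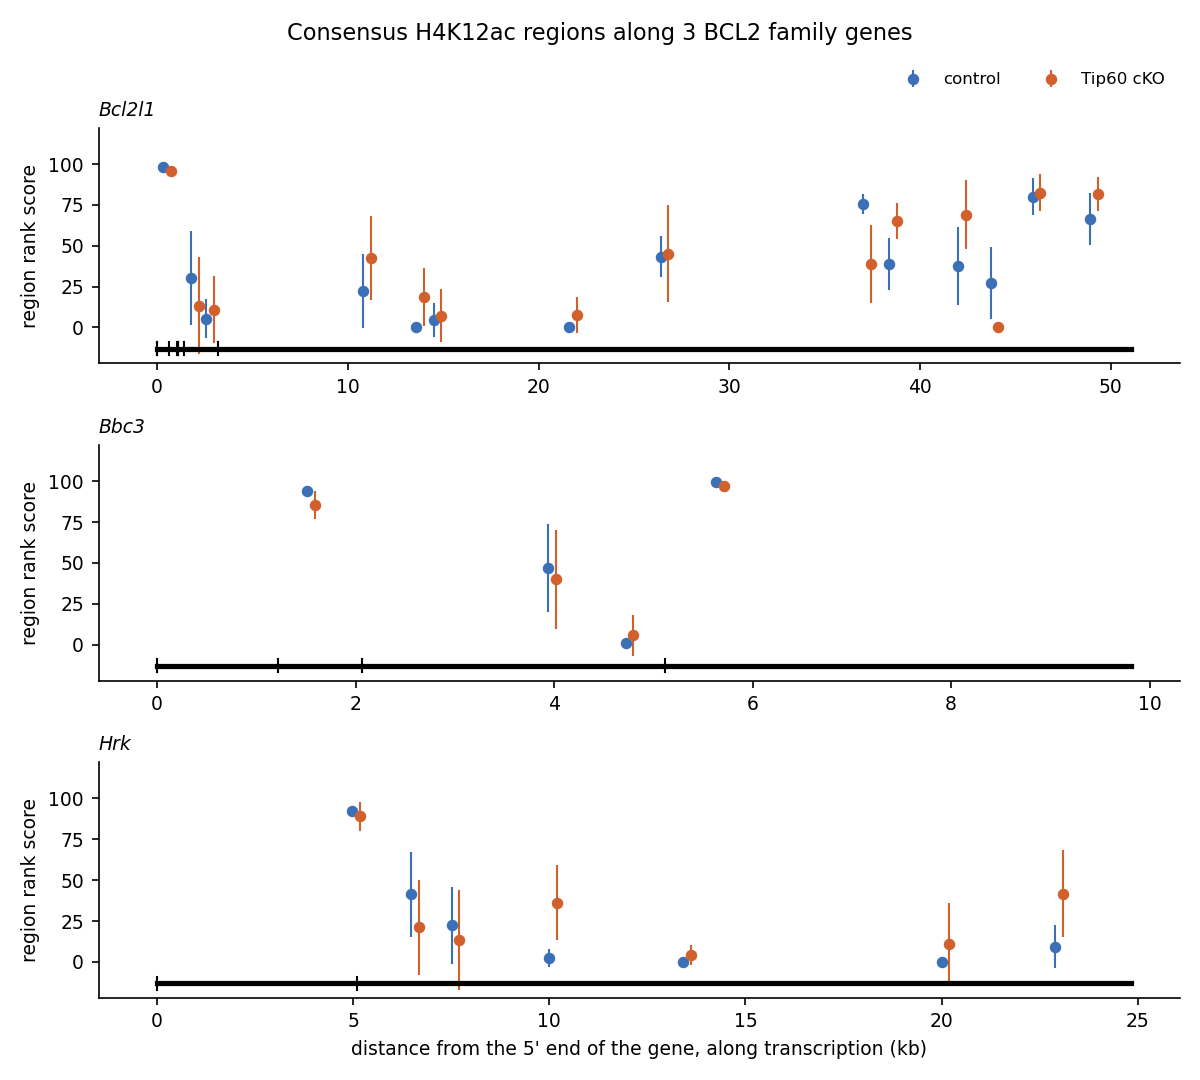
Region rank score (vertical axes, percent rank with 0 for no peak) of the consensus H4K12ac regions along Bcl2l1, Bbc3 and Hrk against the distance of the region centre from the 5′ end of the gene in kb, with points at the means of controls (blue) and Tip60 cKO (orange) and lines of 1 SD (n = 5). The black bar is the gene and its ticks are annotated transcript starts. The tallest regions of Bbc3 and Hrk lie near internal starts at +5124 and +5100 bp, and Bcl2l1 has 5 regions that were in all lists between +37220 and +49144 bp.

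The wider cell death machinery was read in the same way over 60 genes: other BCL2 family members, the apoptosome and caspases, caspase inhibitors, death receptor components and upstream regulators. In the TSS rank score 43 were tested, of which 31 were lower and 12 higher in Tip60cKO and 0 were called, with a median difference of −3.78 beside −1.99 over all genes. Of all genes tested, 57.9% were lower and 1.08% were called. In TSS coverage 38 of 43 were lower, with a median of −3.78 percentage points beside −4.01, and 1 was called, where 81.1% of all genes were lower and 1.56% called. This gene was Foxo1, of the FOXO transcription factors that induce Bcl2l11 and Bbc3. It was covered to 37.2, 50.5, 35.7, 31.3 and 29.2% in controls and to 14.6, 11.5, 6.05, 23.9 and 0% in Tip60cKO, and the groups did not overlap. The difference was −25.6 percentage points (95% interval −36.3 to −14.8, adjusted p = 0.0298, limma). The call was lost when control replicate 1, 2, 3 or 5 or Tip60cKO replicate 2, 3 or 5 was left out, with adjusted p-values from 0.0264 to 0.0769 over the 10 fits, as well as with a window of 1 kb and with the replicate block. Over the 10 fits with 1 library left out, the difference ran from −28.8 to −22.2 percentage points. Groups did not overlap in 2 of the 43 genes, Foxo1 and Jun, as in 5.38% of all genes. The coverage of Jun, another inducer of Bcl2l11, was 80.2 ± 4.83% in controls and 49.7 ± 19.5% in Tip60cKO (adjusted p = 0.0643, limma). Its difference was −30.5 percentage points, with −19.7 within lane 7 and −46.7 within lane 8. Foxo3, whose groups overlapped, had a smaller adjusted p than Jun (0.0529, limma), with 76.2 ± 6.42 and 58.7 ± 6.98%. Jun and Foxo3 were chosen for naming after their values were seen.

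In the TSS rank score, the 3 smallest p-values of the wider list were taken in each direction. They were those of Mapk10, Bad and Cycs with a higher mean in Tip60cKO and of Vdac1, Bcl2l13 and Mapk8 with a lower one. Mapk10, the JNK isoform of neurons, scored 45.5, 23.2, 31.7, 51.4 and 48.4 in controls and 74.1, 71.3, 57.1, 80.8 and 75.2 in Tip60cKO, without overlap (difference 31.7, adjusted p = 0.0541, limma). Bad, a BH3-only gene under control of survival kinases, scored 56.5 ± 12.9 and 79.9 ± 4.08, also without overlap (adjusted p = 0.105), and groups did not overlap in these 2 of 43 genes, compared with 3.46% of all. Cycs, which encodes cytochrome c, differed by 20.8 (adjusted p = 0.273, limma), with 13.6 within lane 7 and 31.6 within lane 8. In TSS coverage these 3 genes had a lower mean in Tip60cKO, by −12.2 percentage points for Mapk10, −3.55 for Bad and −7.04 for Cycs (adjusted p-values of 0.311, 0.745 and 0.222, limma). With pileup ranks, the differences were 13.4, 3.19 and 2.1 (adjusted p-values of 0.638, 0.858 and 0.916, limma). For Mapk10 the rank score difference was 20.2 with the transcript start of highest score (adjusted p = 0.0932, limma). Vdac1, a channel of the outer mitochondrial membrane, differed by −14.4 (adjusted p = 0.293), Bcl2l13 by −16.8 (adjusted p = 0.302) and Mapk8, the gene of JNK1, by −25.5 (adjusted p = 0.348, all limma). With pileup ranks the differences were −7.93 for Bcl2l13 and −13.3 for Mapk8, and within lanes 7 and 8 they were −9.49 and −27.6 for Bcl2l13 and −11.5 and −46.4 for Mapk8. In gene body coverage 31 of 39 genes were lower and 0 were called, with 11 at an unadjusted p below 0.05, where 15.4% of all genes were. Of all gene bodies tested, 73.7% were lower and 0.149% were called.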

How the data were processed

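H4K12ac ChIP-Seq libraries, 5 from Tip60cKO and 5 from control mice, grouped by the genotype in their labels, were analysed from their peak lists. The authors mapped reads to mm10 with STAR, removed duplicates with samtools and called peaks in each library with MACS 2.1.0.20140616 at q below 0.1 against the pooled input of that genotype, while the 2 input samples have no list of their own. Pileup, as deposited, is a signal that counts the fragments covering the summit. Fold enrichment, a ratio deposited beside it, divides the pileup by the local background of the input. The p-values and q-values of each peak were given by the authors as −log10 values. DiffBind with DESeq2, used in the study on reads, was not repeated, since only peaks were used here.

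Genes, transcripts and start sites came from GENCODE M21 on GRCm38, the same build as mm10. The members and gene lists were chosen with earlier results of these data known. TSS rank score, TSS coverage, gene body coverage (genes longer than 2.5 kb) and region rank score were computed per list with Python 3.11.15 and numpy 2.4.6. They were compared by limma 3.58.1 (lmFit and eBayes, R 4.3.3) over all features with a peak in at least 2 lists (21672 genes for the TSS measures, 13419 gene bodies and 144781 of 257454 merged regions), with Benjamini-Hochberg adjustment and a threshold of 0.05. For single values an exact permutation test is given beside it, two-sided over 252 assignments of the 10 lists, with 0.00794 as the smallest p it allows. The limma step was checked in a self-test.

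Named were all members, their regions with an unadjusted p below 0.05 or a peak in all 10 lists, and of the wider list the called genes or else the 3 with the smallest p in each direction. Depth was 22864189 to 37923809 tags. The lists give no counts per region, so that precision is the spread between libraries, and a missing peak was below the threshold at that depth, not shown to be absent. Replicates are separate libraries. The labels do not say whether each came from 1 mouse, so that p-values measure the spread between these libraries, which may be technical in part. Alternatives were peaks with q below 0.01, the 64245 strongest peaks of each list, pileup ranks, windows of 1 kb, all transcript starts, genes longer than 4 kb, features in at least 1 or 5 lists, the replicate number as a block, the sequencing lane (from file names) as a term or separately, a trended robust prior, and each library left out.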

Additional observations from a re-analysis of the deposited data

Results flagged for a closer look

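In 105 groups of 5 values (the members, their named regions and the named genes of the wider list), 10 had 1 library far from the other 4 by Dixon's test, which by chance occurs in about 1 of 20 groups. In several of these groups the other lists had no peak, so that the single peak or its absence set the range. The gene body of Bax was covered to 4.22% in Tip60cKO replicate 1 and had no peak in the other Tip60cKO lists. The Bcl2 region at +1604 bp scored 50.2 in control replicate 4 and 0 in Tip60cKO replicate 5, against no peak in the other controls and 59.7 to 71.4 in the other Tip60cKO lists. The Bcl2 region at −12 bp scored 48.0 in control replicate 5, where the other controls had 87.9 to 95.6. In the same library the Mcl1 region at +490 bp scored 77.8, with 94.5 to 99.2 in the other controls.

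In Bcl2l1 the region at +46096 bp scored 62.9 in Tip60cKO replicate 5 and the region at +42160 bp 32.3 in Tip60cKO replicate 1, both below the other Tip60cKO lists. The Bax region at +812 bp scored 75.8 in control replicate 2 and the Bak1 region at +274 bp 91.6 in control replicate 1, each the lowest control. The Hrk region at +10121 bp scored 12.0 in control replicate 3 and had no peak in the other controls.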

How the results depend on the processing

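The count of 0 called members was the same in TSS rank score, TSS coverage and gene body coverage under all alternatives run. For regions at the members it was 1 within lane 7 (Bcl2 at +1604 bp, which was included only through Tip60cKO, so that nothing is read from this call), 0 to 1 with each library left out (Bcl2l1 at +37220 bp without Tip60cKO replicate 4) and 0 otherwise. Of 665 values of 33 member and region differences under alternatives, 615 had the direction and side of the threshold of the reported value, and 48 had the other direction. The regions among them were taken for an unadjusted p below 0.05 in these same data, some of them included only through Tip60cKO. No region value had the other direction, which this choice favours, so the pooled share is not read as stability. All changes of direction were in the gene measures.

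Within lane 8 the TSS rank score difference was 14.4 for Bcl2, 2.65 for Mcl1 and −1.80 for Bax, TSS coverage −3.32 for Mcl1, and gene body coverage −0.00431 for Bcl2, −2.74 for Hrk and −2.10 for Bak1. Within lane 7 the rank score difference was 3.58 for Bcl2l11 and 1.89 for Bid, TSS coverage 2.71 for Bcl2, and gene body coverage 1.09 for Bcl2l1. With pileup ranks it was 3.15 for Bid and −11.0 for Bax. With equal numbers of peaks, TSS coverage was 0.845 for Bcl2 and 0.530 for Bcl2l11, gene body coverage 0.112 for Bcl2l1 and −0.0444 for Bak1, and the Bcl2l1 region at +13768 bp had no peak left. With a window of 1 kb, TSS coverage of Bcl2l11 was 1.04, and with q below 0.01, gene body coverage of Bak1 was −0.119. With each library left out, rank score differences ranged from −3.44 to 2.40 for Bcl2l11, from −1.08 to 6.89 for Bax and from −2.50 to 4.84 for Bak1. TSS coverage ranged from −3.51 to 2.27 for Bcl2, −4.31 to 0.279 for Bcl2l11 and −1.57 to 3.16 for Mcl1, and gene body coverage from −0.0243 to 0.0335 for Bcl2, −0.332 to 0.102 for Bcl2l11, −2.02 to 1.20 for Bcl2l1, −0.736 to 1.68 for Hrk and −3.49 to 3.10 for Bak1. The cause of these changes was not tested.

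Calls of the wider list in the rank score were 1 (Mapk10) with equal numbers of peaks and with the lane term, and 0 to 1 with each library left out. In TSS coverage they were 3 (Foxo1, Foxo3 and Jun) with equal numbers of peaks, 2 with the lane term and with at least 5 lists (Foxo1 and Foxo3), 0 with a window of 1 kb, with the replicate block and within lane 7 and lane 8, and 0 to 5 with each library left out, the highest without Tip60cKO replicate 1.

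Correlations of same-numbered libraries ran from −0.0148 to 0.0609 in TSS rank score and from −0.0139 to 0.0232 in region rank score, with 0 of 5 pairs above 0.1. They ran from −0.151 to 0.135 in TSS coverage and from −0.193 to 0.169 in gene body coverage, with 2 of 5 pairs above 0.1 in each, so that the numbers were not taken as pairs. In TSS rank score 3 of 10 libraries correlated best with their own number, in the others 2 of 10. With the replicate block, 0 genes or regions of the whole tables were called, compared with 133 lower and 102 higher genes in the rank score, 331 and 8 in TSS coverage, 20 and 0 in gene body coverage, and 882 and 147 regions. With each library left out, these counts were 65 to 130 and 32 to 91, 37 to 1377 and 1 to 12, 0 to 231 and 0 to 2, and 561 to 1315 and 98 to 348, so that the shares of called genes given beside the members move with single libraries. With pileup ranks, 2 genes were lower and 4 higher in the rank score. A trended prior gave 68 and 55, and equal numbers of peaks 700 and 34 in TSS coverage and 109 and 5 in gene body coverage. A list without a peak does not show that acetylation was absent.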
